A study of Homo sapiens with 12 samples.

Results

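The 9 genes described here encode the receptor chains, receptor kinases and feedback inhibitors of interferon signaling in HT1080 cells. They were taken by gene symbol: the type I receptor chains IFNAR1 and IFNAR2, the type II receptor chains IFNGR1 and IFNGR2, the kinases JAK1, JAK2 and TYK2, and the inhibitors SOCS1 and SOCS3. All 9 had a row among the 16101 genes listed for the PMA experiment and among the 15991 listed for the ConA experiment, out of 16633 genes listed in either, and all 9 passed the filter on low values in both.

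Interferons are secreted cytokines that act through paired receptor chains on the cell surface. Type I interferons bind IFNAR1 and IFNAR2, which carry TYK2 and JAK1, and interferon gamma binds IFNGR1 and IFNGR2, which carry JAK1 and JAK2. The kinases phosphorylate STAT proteins, which enter the nucleus and drive transcription, and the SOCS proteins, themselves induced by this signaling, bind the kinases or receptors and shut it down.

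HT1080 is an established human fibrosarcoma line with mesenchymal features, used here as wild-type cells. The 12 libraries of polyadenylated RNA made up 4 groups of 3. These were cells given 40 nM PMA (a phorbol ester that activates protein kinase C) for 24 h, controls 1 to 3 of that experiment, cells given 40 µg/mL ConA (a plant lectin that binds cell-surface sugars) for 24 h, and controls 4 to 6 of that second experiment. All cells were seeded at 1000000 per dish in biotin-depleted medium with 10% serum and moved 3 days later to biotin-depleted medium with 1% serum, in which the treatment was given. The labels give the controls as Control alone, and whether they received solvent is not given. They also do not say whether the 3 libraries of a group came from separate cultures, and p-values therefore measure only the spread between these libraries, which may be technical.

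Values are normalized counts, that is, estimated reads per gene divided by a single factor per library. The 2 experiments were normalized apart, so levels are compared only within an experiment. A gene is said to have risen or fallen where its adjusted p was at most 0.05, and to have been called where its log2 fold change was also at least 1 in either direction with an adjusted p of at most 0.0001. Fold changes on the log2 scale are of the value plus 1. Depth was 33646610 to 45584758 estimated reads per library.

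The cell type was checked against marker lists. The summed level of the mesenchymal markers was high in every library and lower with both treatments, without overlap. Most single markers that changed fell. On the log2 scale only VIM rose with PMA (0.49). FN1 (-0.56), COL1A2 (-1.04), COL5A1 (-1.34), SPARC (-1.53), CDH2 (-0.29), S100A4 (-0.33) and TGFBI (-1.24) fell with PMA. With ConA COL1A2 (0.92) and CDH2 (0.47) rose. VIM (-0.79), FN1 (-0.68), COL1A1 (-0.66), COL5A1 (-0.35), S100A4 (-1.05) and TGFBI (-1.90) fell with ConA. The summed level of all 10 was 435000 to 442800 normalized counts in the controls and 408870 to 428460 with PMA. That of the 9 listed in the ConA experiment (THY1 had no row) was 499600 to 577180 in the controls and 371880 to 405530 with ConA. Of 7 epithelial markers, 3 had rows in the PMA experiment (sum 213 to 253 in the controls and 170 to 216 with PMA) and 6 in the ConA experiment (193 to 217 and 202 to 331). EPCAM and CDH1, which define epithelial cells, had no row for PMA and at most 31.0 and 16.7 normalized counts for ConA, while KRT19 reached 150 and 122. The 3 general leukocyte markers summed to 7066 to 7130 in the controls and 7273 to 8042 with PMA. The 2 of them with rows for ConA summed to 8223 to 8754 and 9326 to 9766, without overlap in either. Most of each sum was LCP1, with at least 6488 normalized counts in the PMA experiment and 7868 in the ConA experiment. PTPRC had 176 to 187 in the controls and 168 to 328 with PMA, which overlapped, and no row for ConA. Monocyte markers summed to 300 to 332 in the controls and 326 to 385 with PMA. In the ConA experiment they summed to 432 to 460 in the controls and 352 to 405 with ConA. In the PMA experiment 7 of 8 T and NK cell markers had rows (TRAC had none), and their sum was 896 to 1052 normalized counts in the controls and 1375 to 1690 with PMA, with no overlap. In the ConA experiment only CD3D of these 8 had a row, with 21.9 to 31.0 normalized counts in the controls and 21.6 to 26.1 with ConA. The part of these marker signals in the results was not tested.

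Upstream sequence is shown for the 2 members whose window held a match to a searched motif, and for IFNL1, the interferon gene with the most reads among the ConA libraries. RefSeq start-site windows (250 bases before to 50 after the start, GRCh38.p14) were found for 8 of the 9 members, 16 windows in all, and only IFNAR2 was unmatched. The windows were searched on both strands for TTCNNNGAA (the STAT site of interferon gamma targets), GAAA, any 2 bases and GAAA again (the core of the interferon-stimulated response element), TGANTCA (AP-1) and GGGA, any base, TT, any base and CC (NF-kB). These occur in 7.66%, 3.57%, 7.71% and 1.4% of 35116 RefSeq windows of the same length. The 250 bases before the start site follow, 5′ to 3′ on the coding strand, with the motif match in capitals.

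IFNGR2, chr21:33403163-33403412, plus strand: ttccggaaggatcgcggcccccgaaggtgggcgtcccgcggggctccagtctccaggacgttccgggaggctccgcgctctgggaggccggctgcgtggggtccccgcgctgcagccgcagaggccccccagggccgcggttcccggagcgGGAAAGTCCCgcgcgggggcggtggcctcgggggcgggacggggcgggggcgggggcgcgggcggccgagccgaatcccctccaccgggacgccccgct

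SOCS1, chr16:11256205-11256454, minus strand: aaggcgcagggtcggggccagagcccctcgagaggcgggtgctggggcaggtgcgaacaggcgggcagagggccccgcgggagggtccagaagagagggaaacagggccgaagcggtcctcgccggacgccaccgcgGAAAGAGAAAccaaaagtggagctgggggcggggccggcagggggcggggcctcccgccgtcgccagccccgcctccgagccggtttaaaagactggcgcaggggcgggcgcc

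IFNL1, chr19:39296157-39296406, plus strand: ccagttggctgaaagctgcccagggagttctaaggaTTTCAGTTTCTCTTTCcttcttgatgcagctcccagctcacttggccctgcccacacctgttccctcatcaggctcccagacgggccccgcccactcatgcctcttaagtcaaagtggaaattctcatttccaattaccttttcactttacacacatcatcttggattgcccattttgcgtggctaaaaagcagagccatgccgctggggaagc

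The capitals in IFNGR2 are the NF-kB letters read on the opposite strand, starting 99 bases before the start site. Those in SOCS1 are the response-element core, starting 113 bases before it. The capitals in IFNL1 are 2 overlapping response-element matches on the opposite strand, starting 214 and 208 bases before the start site. The windows of IFNAR1, IFNGR1, JAK1, JAK2, TYK2 and SOCS3 held none of the 4 motifs. Windows of IRF9, IL10RB and STAT2, which are not members, were searched too. The STAT site letters started 63 bases before the start site in IRF9 and 11 bases after it in IL10RB, and STAT2 held no match. A match is a description of the letters and not a test of binding.

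With PMA, 5 of the 9 genes rose (IFNAR1, IFNAR2, IFNGR2, JAK1, TYK2), IFNGR1 and SOCS3 fell, and JAK2 and SOCS1 did not pass. Of all 15153 genes tested with PMA, 63.3% changed, 32.8% upward and 30.5% downward, so 7 of 9 is not far from the background. IFNGR2 was the only member called with PMA, beside 8.65% of all genes (4.03% higher and 4.61% lower). The PMA and control libraries did not overlap for 7 members, 5 higher and 2 lower, beside 67.9% of all genes (34.8% higher and 33.1% lower).

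With ConA, 8 genes rose and SOCS3 fell. Of all 15139 genes tested with ConA, 65.3% changed, 32.8% upward and 32.5% downward. IFNAR2 was the only member called with ConA, beside 8.71% of all genes (5.83% higher and 2.88% lower). No overlap between the ConA and control libraries was seen for any of the 9 members, 8 higher and 1 lower, beside 69.3% of all genes (34.9% higher and 34.4% lower). The median log2 fold change of the 9 genes was 0.35 in either experiment, while that of all genes tested was 0.00288 for PMA and -0.00222 for ConA.

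**Figure D1:**
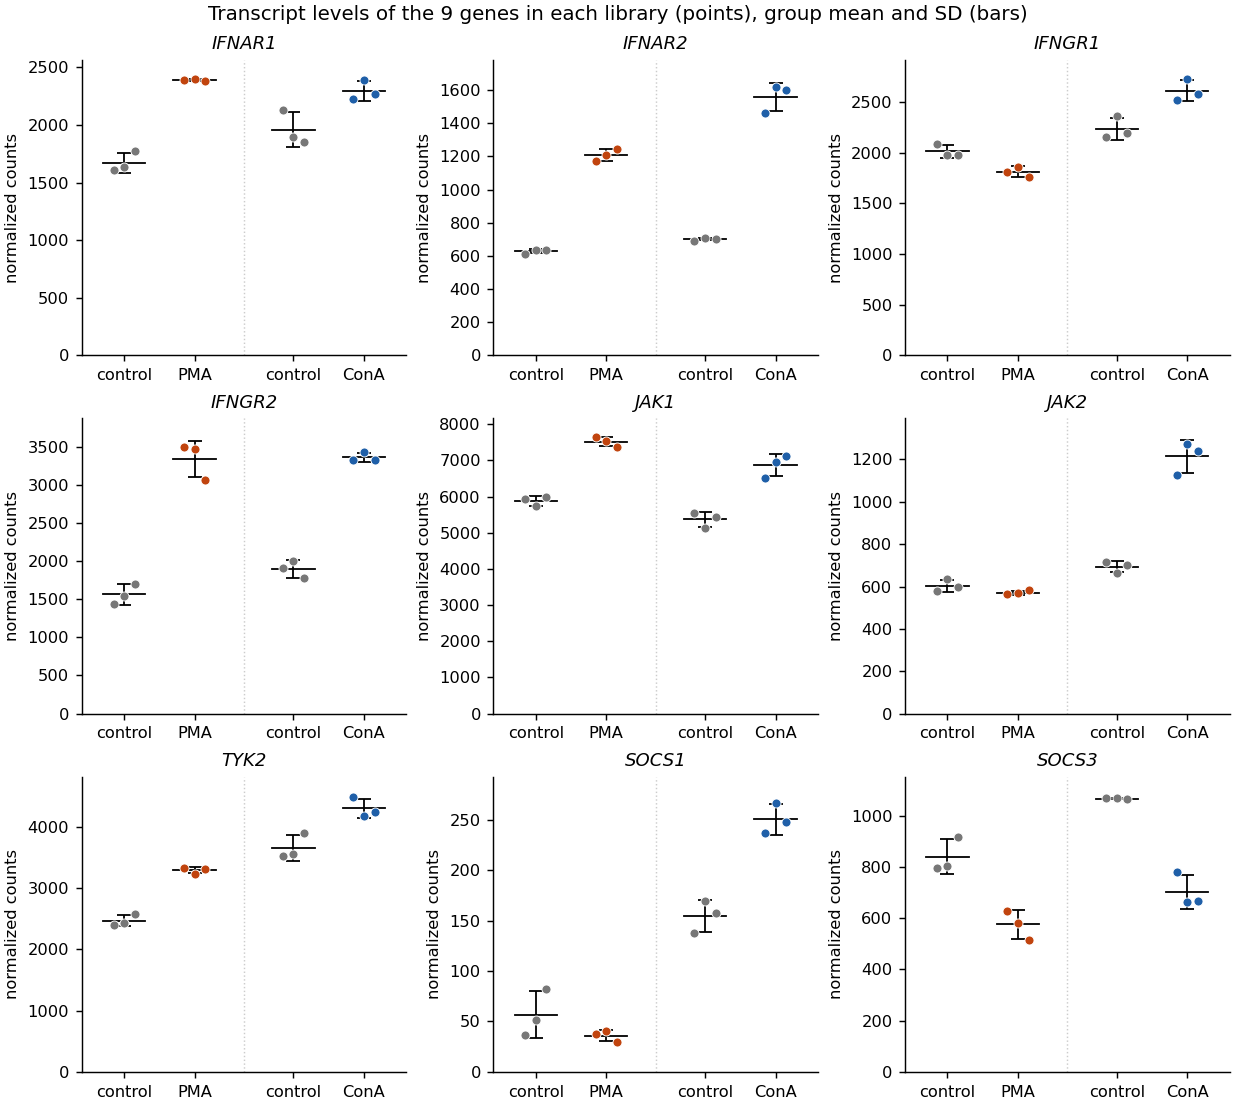
Normalized counts (vertical axes, each from 0) of the 9 genes in the 12 libraries, by group; points are libraries, horizontal lines group means, error bars the SD of 3 libraries, and the dotted line separates the experiments, which were normalized apart. Treated and control points overlap only for JAK2 and SOCS1 with PMA.

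IFNAR1, the receptor chain that carries TYK2, rose with both treatments. Its normalized counts were 1609, 1634 and 1772 in the controls and 2395, 2400 and 2385 with PMA. In the ConA experiment they were 2132, 1898 and 1851 in the controls and 2222, 2395 and 2267 with ConA. Every treated library lay above every control of its experiment, narrowly so with ConA, where control 4 stood close to the lowest treated library. The change was 1.43-fold with PMA (log2 fold change 0.52, SE 0.047, adjusted p = 2.13e-06) and 1.17-fold with ConA (0.23, SE 0.064, adjusted p = 0.00624), and the rise with ConA missed the threshold when libraries were centred on their medians (adjusted p = 0.0661).

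IFNAR2, the high-affinity chain that carries JAK1, rose more than any other member with ConA. The controls of the PMA experiment had 613, 635 and 637 normalized counts and the PMA libraries 1175, 1207 and 1244. In the ConA experiment the controls had 692, 706 and 704 and the ConA libraries 1461, 1619 and 1599. The groups lay far apart in both experiments, with the controls close together. Levels were 1.92-fold higher with PMA (log2 fold change 0.94, SE 0.052, adjusted p = 2.95e-08) and 2.23-fold higher with ConA (1.15, SE 0.065, adjusted p = 2.15e-09), a change larger in size than that of 91.1% of all genes tested with ConA. A readthrough transcript joins IFNAR2 to its neighbor IL10RB in the annotation and has no row of its own, so reads of it may stand in either gene.

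The type II receptor chains moved differently. IFNGR1, the ligand-binding chain that carries JAK1, had 2089, 1973 and 1981 normalized counts in the controls and 1813, 1863 and 1763 with PMA. It had 2152, 2358 and 2193 in the controls and 2523, 2727 and 2583 with ConA. All PMA libraries were below their controls and all ConA libraries above theirs. The level fell to 0.90 of the controls with PMA (log2 fold change -0.15, SE 0.045, adjusted p = 0.0114) and rose 1.17-fold with ConA (0.23, SE 0.058, adjusted p = 0.00361). Without PMA-experiment control 1 the fall with PMA missed the threshold (-0.13, adjusted p = 0.0582).

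IFNGR2, the signaling chain that carries JAK2, rose with both treatments and was the only member called with PMA. Its counts were 1444, 1541 and 1706 in the controls and 3494, 3466 and 3069 with PMA. They were 1915, 2004 and 1776 in the controls and 3331, 3429 and 3325 with ConA. The lowest treated library stood well above the highest control in both experiments. The change was 2.14-fold with PMA (log2 fold change 1.10, SE 0.068, adjusted p = 8.14e-08), larger in size than that of 88.9% of genes tested, and 1.77-fold with ConA (0.83, SE 0.058, adjusted p = 2.34e-08). The call with PMA lies next to the fold limit and was lost under quantile normalization (0.99) and without the variance trend (adjusted p = 1.87e-04). The annotated neighbor TMEM50B overlaps IFNGR2, and the counting is not stated to use strand. TMEM50B itself fell with PMA (-0.43, adjusted p = 8.32e-04) and stood at 0.12 on that scale with ConA (adjusted p = 0.157).

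**Figure D2:**
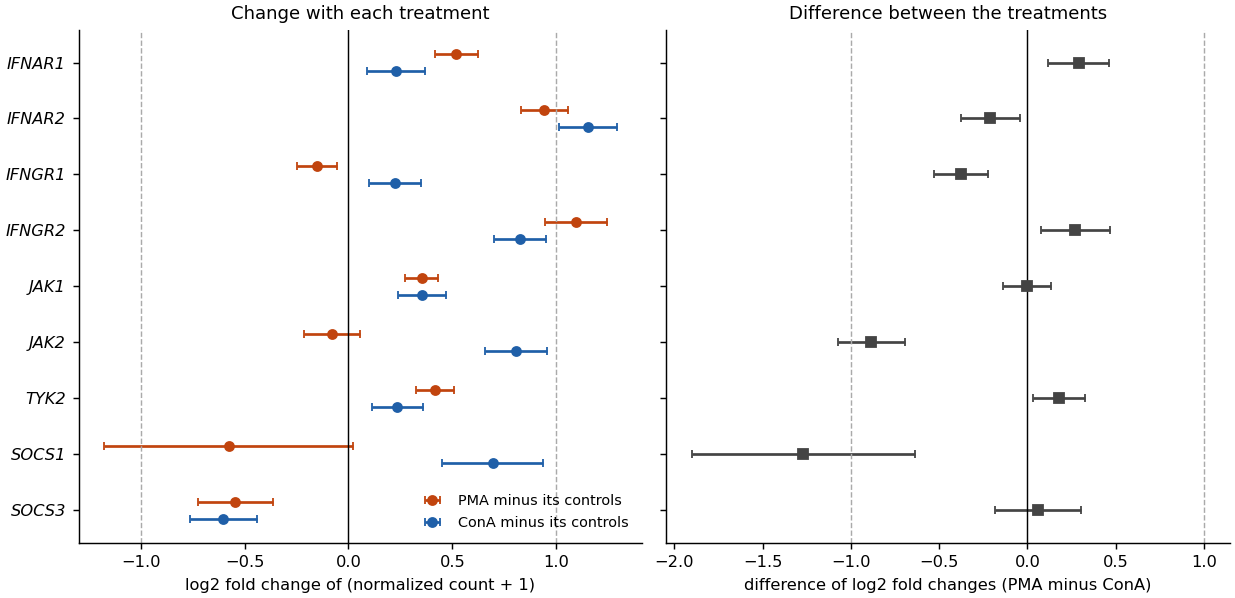
Left, log2 fold change of the normalized count plus 1 against the controls of the same experiment; right, the PMA change less the ConA change. Points are limma estimates, bars 95% intervals, the solid line is no change and dashed lines mark a log2 value of 1 in either direction; IFNGR2 with PMA and IFNAR2 with ConA lie past 1, and the difference is furthest from 0 for SOCS1 (-1.27) and JAK2 (-0.88).

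JAK1, the kinase shared by both receptor types, was the member with the most normalized counts and rose with both treatments. In the PMA experiment the controls had 5947, 5734 and 5994 and the PMA libraries 7638, 7532 and 7380. For ConA the controls had 5543, 5134 and 5446 and the ConA libraries 6520, 6967 and 7128. Neither experiment showed overlap between the groups. Under the deposited scaling the change was 1.28-fold in each (log2 fold change 0.35, SE 0.037, adjusted p = 7.11e-06 with PMA; 0.35, SE 0.055, adjusted p = 5.45e-05 with ConA). RAVER2 overlaps JAK1 in the annotation, with the same limit as for TMEM50B.

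JAK2, the kinase of IFNGR2, rose with ConA. Its counts were 718, 664 and 700 in the controls and 1129, 1274 and 1241 with ConA, with a wide gap between the groups. The change was 1.75-fold (log2 fold change 0.80, SE 0.070, adjusted p = 2.04e-07). With PMA the counts were 579, 636 and 598 in the controls and 564, 567 and 582 in the treated libraries, which overlapped. That log2 fold change was -0.08 (95% interval -0.21 to 0.05, adjusted p = 0.272).

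TYK2, the kinase of IFNAR1, rose with both treatments. It had 2405, 2434 and 2582 normalized counts in the controls and 3336, 3240 and 3313 with PMA. It had 3522, 3556 and 3900 in the controls and 4485, 4182 and 4244 with ConA. The groups did not overlap in either experiment, although control 6 came near the lowest ConA library. The change was 1.33-fold with PMA (log2 fold change 0.41, SE 0.042, adjusted p = 5.52e-06) and 1.18-fold with ConA (0.23, SE 0.057, adjusted p = 0.00232).

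SOCS3, an inhibitor that binds JAK kinases and cytokine receptors, was the only member that fell with both treatments. In the PMA experiment, controls had 795, 805 and 918 normalized counts and the PMA libraries 628, 583 and 516. For ConA the controls had 1067, 1068 and 1063 and the ConA libraries 780, 663 and 668. Every treated library was below every control. The level was 0.69 of the controls with PMA (log2 fold change -0.54, SE 0.083, adjusted p = 1.42e-04) and 0.66 with ConA (-0.60, SE 0.075, adjusted p = 6.90e-06).

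SOCS1, an inhibitor of the JAK kinases and itself an interferon target, was the lowest member and rose with ConA. Its counts were 138, 169 and 157 in the controls and 236, 267 and 248 with ConA, without overlap. The change was 1.62-fold (log2 fold change 0.69, SE 0.11, adjusted p = 8.97e-05). In the PMA experiment the controls had 36.9, 51.0 and 82.1 and the PMA libraries 37.1, 40.9 and 29.9. These groups overlapped, with controls 2 and 3 above all PMA libraries and control 1 among them. The estimated reads behind them were few, 188 over the 3 controls and 100 over the 3 PMA libraries. The log2 fold change with PMA was -0.58 (95% interval -1.18 to 0.02, adjusted p = 0.0857). It ran from -0.84 without control 1 (adjusted p = 0.0192) to -0.27 without control 3 (adjusted p = 0.367). In a joint limma fit of all 12 libraries the same change had an adjusted p of 0.0252.

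The change with PMA and the change with ConA were then compared with each other in a fit of all 12 libraries. Each treatment and its controls belonged to 1 experiment only. Differences between the treatments therefore cannot be told apart from differences in response between the experiments. By limma, 0 of the 9 differences were called, beside 10.6% of the 15030 genes tested (3.67% positive and 6.89% negative). An adjusted p of at most 0.05 was reached by 7 members, 3 positive and 4 negative, beside 61.1% of all genes (30.4% positive and 30.7% negative), and the same number had an unadjusted p under 0.05. JAK2 differed by -0.88 (PMA minus ConA, 95% interval -1.08 to -0.69, adjusted p = 2.14e-07), and SOCS1 by -1.27 (-1.90 to -0.64, adjusted p = 0.00141). IFNGR1 differed by -0.38 (-0.53 to -0.23, adjusted p = 2.20e-04) and IFNAR2 by -0.21 (-0.38 to -0.043, adjusted p = 0.0295). These 4 were therefore more positive with ConA. IFNAR1 was more positive with PMA by 0.29 (0.12 to 0.46, adjusted p = 0.00511), as were IFNGR2 by 0.27 (0.076 to 0.47, adjusted p = 0.0174) and TYK2 by 0.18 (0.032 to 0.33, adjusted p = 0.0348).

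JAK1 and SOCS3 showed no such difference at this precision. For JAK1 the difference was -0.0029 (95% interval -0.14 to 0.13, adjusted p = 0.974), though -0.14 under quantile normalization (adjusted p = 0.0628), where JAK1 rose by 0.19 with PMA and 0.34 with ConA, and for SOCS3 it was 0.058 (-0.19 to 0.30, adjusted p = 0.682). The SOCS1 difference met the threshold under every alternative, but its size varied. It ran from -1.54 without PMA-experiment control 1 to -0.85 under quantile normalization (adjusted p = 0.0247). The differences of IFNAR2, IFNGR2 and TYK2 missed the threshold under some alternatives. IFNAR2 reached an adjusted p of 0.0966, IFNGR2 0.0897 and TYK2 0.429 under other scalings. Without single libraries the p of IFNAR2 passed 0.05 for control 2, control 3, PMA 1, PMA 2, ConA 2 and ConA 3, with at most 0.0724. That of IFNGR2 did so without control 1 (0.0580). That of TYK2 did so for controls 1, 2 and 6, PMA 1, PMA 3, ConA 2 and ConA 3, with at most 0.105.

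Levels of different genes were compared per kilobase of the longest protein-coding transcript in GENCODE 29 (GRCh38), as group means of the normalized count per kilobase. In the controls of the PMA experiment the order was JAK1 (1167), IFNGR1 (800), IFNGR2 (704), TYK2 (569), SOCS3 (307), IFNAR1 (272), IFNAR2 (147), JAK2 (114) and SOCS1 (31.8). No neighbors in that order overlapped over their 3 libraries. The controls of the ConA experiment gave the same order, but there IFNGR1 (854 to 936), IFNGR2 (800 to 902) and TYK2 (810 to 897) overlapped.

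IFNGR2 moved from the third place to the first with both treatments, at 1505 per kilobase with PMA and 1514 with ConA. With PMA its libraries (1382 to 1573) overlapped those of JAK1 (1462 to 1513), whereas with ConA they (1497 to 1544) lay above JAK1 (1292 to 1412). With ConA the level of IFNAR2 per kilobase (341 to 378) overlapped that of IFNAR1 (362 to 390), which it had been below in the controls. IFNGR1 (1002 to 1083) and TYK2 (962 to 1032) also overlapped with ConA. SOCS3 dropped from the fifth place to the seventh with both treatments, and SOCS1 stayed last in all 4 groups.

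**Figure D3:**
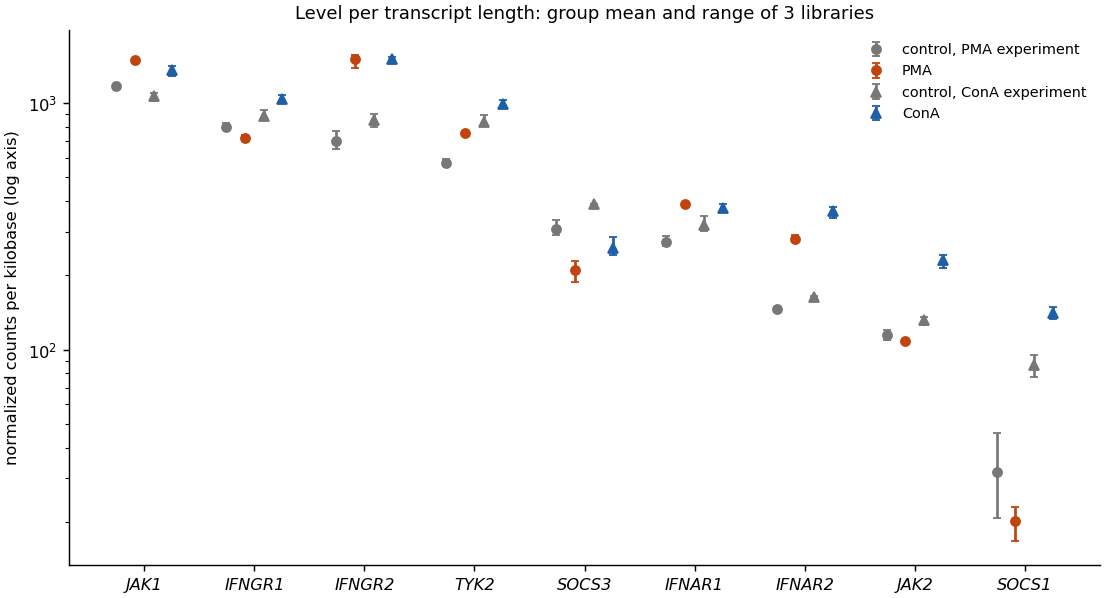
Normalized counts per kilobase of transcript (logarithmic vertical axis) of the 9 genes; markers are means of 3 libraries and bars their lowest and highest value, circles for the PMA experiment and triangles for the ConA experiment. IFNGR2 stands at 1505 with PMA and 1514 with ConA, level with or above JAK1, while SOCS1 is lowest in every group.

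IFNAR2, IL10RB, IFNAR1 and IFNGR2 lie next to each other on chromosome 21 in the RefSeq gene order, and all 4 rose with both treatments. IL10RB, the shared chain of the interferon lambda and interleukin 10 receptors, rose by 0.38 on the log2 scale with PMA (95% interval 0.25 to 0.50, adjusted p = 1.26e-04) and 0.66 with ConA (0.54 to 0.78, adjusted p = 1.35e-07). The 8 protein-coding genes around the cluster, 4 on each side, were taken for comparison after the values had been seen. With PMA 6 of them were tested, with a median log2 fold change of 0.16 and a range of -1.30 to 1.94, and with ConA 5 were tested, with a median of 0.14 and a range of -0.073 to 0.46. The neighbors with PMA included OLIG2 (1.94) above every receptor gene and DNAJC28 (-1.30) below. With ConA the neighbors SON (0.46) and PAXBP1 (0.33) lay above IFNAR1 (0.23), and GART was lowest (-0.073). SON also rose with PMA (0.21, adjusted p = 7.56e-04).

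**Figure D4:**
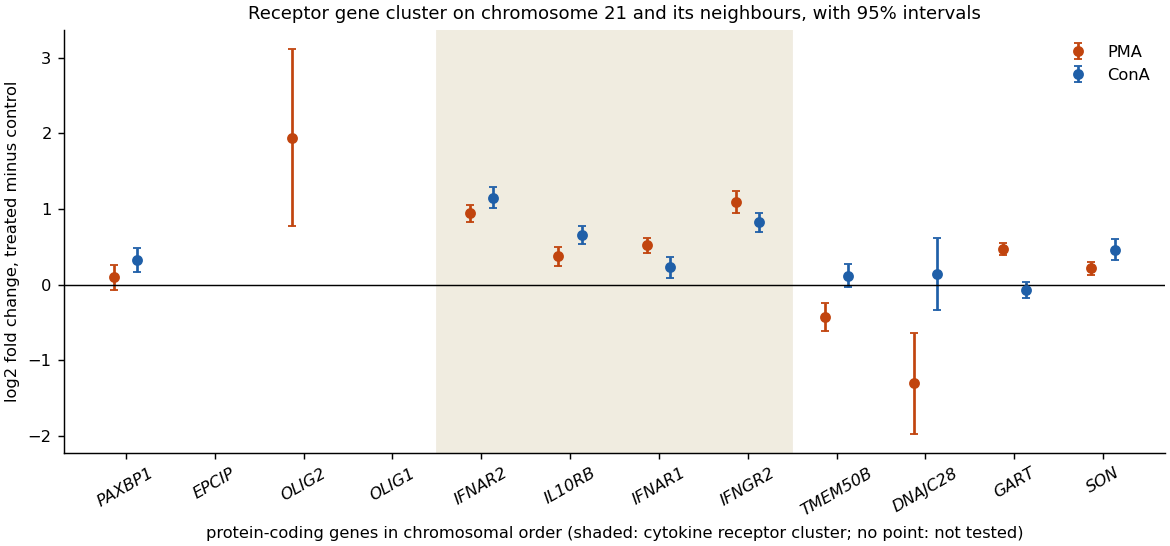
Log2 fold change (vertical axis) with 95% intervals for protein-coding genes in their order along chromosome 21, with the receptor cluster shaded; genes without a point were not tested. The 4 receptor genes lie above 0 with both treatments. Their neighbors run from -1.30 to 1.94 with PMA and from -0.073 to 0.46 with ConA, where SON and PAXBP1 lie above IFNAR1.

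Genes whose levels ran most like each member were ranked over 14661 genes by Pearson correlation over the 12 libraries, after the mean of each experiment was subtracted. The points share their experiment and treatment, so high values are common and are a description. Nearest to IFNAR1 was PAQR3 (r = 0.989), followed by RASA2 and UBE2W. Nearest to IFNAR2 were IRAK2 (0.998), ICAM1 and CFLAR, and nearest to IFNGR2 were PDCD7 (0.995), PPIF and PHACTR1. IFNGR1 was nearest to MANSC1 (0.953), TAF7 and CIR1.

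Among the kinases, JAK1 ran with NUP98 (0.999), WDR44 and FGD6. JAK2 ran with ATXN7L1 (0.993), ZFPM2 and CKAP2L, and TYK2 with CSPG4 (0.989), DUSP7 and SIPA1L3. SOCS3 was nearest to UBE2H (0.990), RUFY1 and SOX12. SOCS1 had the loosest match, MN1 at 0.929, before ZNF70 and ZNF445.

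The ligands of these receptors had few reads. Of 22 interferon genes in the list, 2 had a row in the PMA experiment (IFNE and IFNG) and 3 in the ConA experiment (IFNB1, IFNE and IFNL1). IFNB1 thus had a row only with the ConA experiment, no IFNA gene had a row in either, and IFNL1 was the only IFNL symbol, in the ConA experiment alone. Every listed gene reached about 10.0 estimated reads in at least 1 library of its experiment, so a missing row gives no value. IFNB1, IFNG, IFNL1 and the receptor gene IFNLR1 reached it only in treated libraries, so having a row favored a ratio above 1. Their ratios and intervals below are given as a description.

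IFNL1, a type III interferon, had 0, 3 and 2 estimated reads in the controls and 36, 38 and 45 with ConA. That is 5 against 119 reads, a ratio of 22.9 after depth scaling (exact 95% interval 9.56 to 71.9, covering counting error only). All treated libraries lay above the controls. The gene passed the filter through the ConA group alone, and its values are given as a description. IFNB1, the first type I interferon made by many infected cells, had 0, 1 and 2 reads in the controls and 8, 11 and 3 with ConA. The ratio was 7.07 (2.12 to 36.9) on 3 against 22 reads. The gene had its row through the ConA group alone, was below the filter and was not tested.

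IFNE, a type I interferon of epithelia, had 27, 40 and 40 estimated reads in the controls and 54, 53 and 26 with PMA (log2 fold change 0.52, adjusted p = 0.114). In the ConA experiment it had 12, 37 and 28 reads in the controls and 12, 8 and 7 with ConA, a ratio of 0.34 (0.21 to 0.53), with control 4 equal in reads to ConA 1. There it passed the filter through the controls alone. IFNG, the type II interferon made mainly by T and NK cells, had 1, 3 and 3 reads in the controls and 5, 9 and 12 with PMA, a ratio of 4.47 (1.89 to 12.2). IFNG had its row through the PMA group alone and was below the filter. Its highest library, PMA 3, is also that with the highest T and NK marker sum. The part of that marker signal in the few IFNG reads was not tested. IFNLR1, the specific chain of the type III receptor, had a row only in the ConA experiment, through the ConA group alone. It had 6, 3 and 8 reads in the controls and 13, 14 and 15 with ConA, a ratio of 2.38 (1.33 to 4.46).

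The other genes of the pathway were counted from a list of 81, ligands included. With PMA 56 had a row and 55 were tested: 25 rose, 13 fell and 17 did not pass, with a median log2 fold change of 0.18. With ConA 56 had a row and 53 were tested: 21 rose, 11 fell and 21 did not pass, with a median of 0.050. Calls numbered 4 up and 2 down with PMA, and 10 up and 0 down with ConA. Some genes passed the filter through the group where they are high, which fixes their direction: IL3RA and PRLR with PMA, and IFNE, IFNL1, IL3RA, PRLR and STAT4 with ConA. Without them 23 rose and 13 fell of 53 with PMA, and 17 rose and 10 fell of 48 with ConA, with 7 calls up and medians of 0.17 and 0.012. Of all genes tested, 32.8% rose and 30.5% fell with PMA, and 32.8% rose and 32.5% fell with ConA. All genes tested were called higher in 4.03% and lower in 4.61% with PMA, and in 5.83% and 2.88% with ConA. These shares are also the background for the counts by role that follow.

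Of the receptors of other cytokines that use the same kinases, 19 were tested with PMA and 17 with ConA. With PMA 11 rose and 5 fell, and with ConA 8 rose and 3 fell, or 9 and 5 of 17 and 6 and 3 of 15 without IL3RA and PRLR. IL7R (interleukin 7 receptor) was called with both treatments (log2 fold changes of 3.19 for PMA and 3.54 for ConA), as was IL27RA (1.64 and 1.35). IL6ST, the signaling chain of the interleukin 6 family, was called with PMA (1.03) and rose with ConA (0.36, adjusted p = 6.05e-04), and its partner LIFR was called lower with PMA (-1.05). Both lie next to the limits. IL6ST was not called without control 2 (0.99) or under quantile normalization (0.84), and LIFR was not called without control 3 (-0.97), without PMA 2 (-0.99) or without the variance trend (adjusted p = 3.71e-04). IL22RA1 (3.17) and IL12RB1 (3.03) were called with ConA. IL3RA had 5 estimated reads over the controls and 132 with ConA, and PRLR had 20 and 194. The T and NK marker sum, higher with PMA as given above, stands beside the PMA values of such lymphocyte receptors as IL7R. In the ConA experiment, where only CD3D of those markers had a row, IL7R had 393 to 524 normalized counts in the controls. The part of the marker signal was not tested.

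The 7 STAT and IRF9 genes counted here, whose products carry the signal to the nucleus, were tested in both experiments. With PMA 3 rose and 3 fell, and with ConA 7 of 7 rose, or 6 of 6 without STAT4. STAT2 and IRF9, which act together after type I interferon, fell with PMA and rose with ConA. On the log2 scale STAT2 stood at -0.24 with PMA and 1.98 with ConA, and IRF9 at -0.39 and 0.82. STAT3 fell with PMA (-0.20) and rose with ConA (0.40). STAT5A was called with ConA (1.56).

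Among the other 6 SOCS family genes, 1 rose and 2 fell with PMA, and 0 rose and 1 fell with ConA. CISH, an inhibitor of STAT5 signaling, rose with PMA (log2 fold change 0.81, adjusted p = 3.71e-04). It stood at 0.02 with ConA (95% interval -0.69 to 0.73, adjusted p = 0.963), on 51 reads over the controls and 55 over the ConA libraries. The part of the T and NK marker signal in the PMA value of CISH was not tested. SOCS2 fell with PMA (-0.42, adjusted p = 0.00146) and stood at -0.13 with ConA (adjusted p = 0.179), while SOCS7 fell with ConA (-0.70). The 4 partners with which SOCS proteins form a ubiquitin ligase had 2 that rose with PMA and 3 that fell with ConA, ELOB furthest at -0.86.

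Of 12 other inhibitors tested with PMA 5 rose and 2 fell, and of 11 tested with ConA 4 rose and 2 fell. USP18, which blocks IFNAR2 from JAK1 and is itself an interferon target, was called lower with PMA (log2 fold change -1.09, but -0.92 and not called under quantile normalization) and higher with ConA (4.86). SH2B3, an adaptor that restrains JAK2, was called with PMA (1.20), though not without the variance trend (adjusted p = 1.12e-04). PTPN2, a phosphatase of JAK1, rose with PMA (0.44) and had 0.11 with ConA (adjusted p = 0.128). JAK3, the kinase of the common gamma chain, had 0.36 with PMA (adjusted p = 0.204) and -0.20 with ConA (adjusted p = 0.658). Of 4 adaptors, 2 rose and 1 fell with PMA, and 0 rose and 1 fell with ConA.

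**Figure D5:**
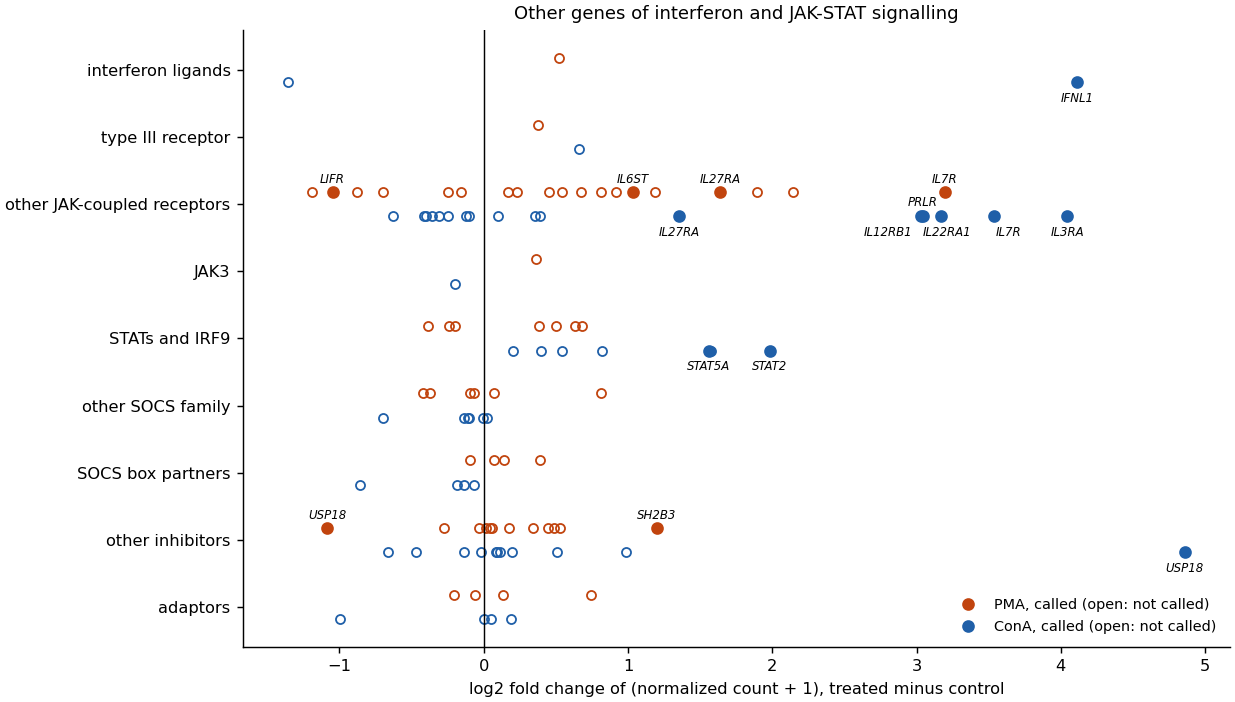
Log2 fold change against the controls of the same experiment (horizontal axis) for the tested genes of the pathway list by role; each circle is a gene, red for PMA and blue for ConA, filled and named where called, including IFNL1, IL3RA and PRLR, which passed the filter through the ConA group alone. Called genes with ConA are all to the right of 0 and reach 4.86 for USP18.

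The interferon targets went down with PMA and up with ConA. Of 12 in the list, 10 of 10 tested fell with PMA, beside 30.5% of all genes. With ConA 12 of 12 rose, beside 32.8% of all genes. Without CXCL9, which passed the filter through the ConA group alone, 11 of 11 rose. The medians were -1.03 with PMA and 4.19 with ConA, or 3.88 with ConA without CXCL9. ISG15 changed by -1.14 and 5.01, IRF1 by -0.45 and 1.22, GBP1 by -0.40 and 3.31, and CXCL10, without a row in the PMA experiment, by 10.06 with ConA.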

How the data were processed

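Polyadenylated RNA of 12 HT1080 libraries was measured by RNA sequencing at a service company. The authors deposited signal values for each gene symbol, which are estimated counts, some of them fractional, divided by a single factor per library and not by gene length. The submitters' processing notes name Partek, Bowtie2, STAR, DESeq2 and the builds hg19 and mm10 without roles, so the counting tool, its annotation and its use of strand are not given in the sources used here. Reads shared between overlapping genes may be split between them. Between 80.0% and 82.4% of values from 5 to 60 came out as whole reads, and tests for counts were therefore not run.

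Genes with a mean of at least 10 in an experiment were tested on log2(value + 1) with limma 3.58.1 in R 4.3.3 (variance trend), treated against the controls of the same experiment, with Benjamini-Hochberg adjustment over all genes tested. The difference between treatments was fitted over 12 libraries with 4 group means for genes listed in both experiments. The test was checked on simulated data. A gene of the pathway list is not reported here and was left out of its counts. Precision rests on 3 libraries per group, and intervals on reads cover counting error only. Promoter windows and gene order came from RefSeq (GRCh38.p14) and lengths from GENCODE 29, matched by symbol. The members, gene lists, thresholds and alternatives were chosen with earlier results of these data known. Named were the 9 members, interferon genes with a row, called pathway genes (at most 12 per treatment), 11 pathway genes and 4 targets always given, and the 3 genes most like each member. CXCL9, STAT4, marker genes, TMEM50B, RAVER2, SOCS7, ELOB, the genes around the receptor cluster and PRKD2 were named after their values were seen. Alternatives covered the pseudocount, filter, scaling, variance trend, thresholds, replicate block and single libraries. Figures were made with Python 3.11.15 and matplotlib 3.10.9.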

Additional observations from a re-analysis of the deposited data

Results flagged for a closer look

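The change with PMA and the change with ConA differed past the call limit, in a test of the difference itself with limma over 12 libraries, for 7 of the 53 pathway genes tested, beside 10.6% of all genes. Of the 9 receptor, kinase and SOCS genes 0 were called. An adjusted p of at most 0.05 was reached by 7 of them, beside 61.1% of all genes, and the same number had an unadjusted p under 0.05. Treatment and experiment cannot be told apart in any of these differences. Differences are PMA minus ConA on the log2 scale. USP18 differed by -5.94, IL22RA1 by -4.05, IL12RB1 by -2.36, STAT2 by -2.22, IRF9 by -1.20 and PRKD2, a kinase that marks IFNAR1 for degradation, by -1.02. SH2B3, which restrains JAK2, differed by 1.11, though by 0.90 and without a call under quantile normalization. PRKD2 lies next to the limit and was not called without control 3 (-0.97), PMA 2 (-0.99) or ConA 3 (-0.96), or under median centring (-0.97).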

How the results depend on the processing

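Across 494 re-computations of 27 single-gene results, 472 kept their direction and their side of the call limit, 2 lost a call, 12 gained one and 8 changed sign. Both lost calls were IFNGR2 with PMA, under quantile normalization (0.99) and without the variance trend (1.10, adjusted p = 1.87e-04), where 0 members were called in place of 1. With an adjusted p no higher than 0.0001 and any size of change, 5 members were called with PMA (IFNAR1, IFNAR2, IFNGR2, JAK1 and TYK2), 6 with ConA and 1 for the difference (JAK2), beside 25.8%, 30.5% and 27.0% of all genes, and 17 and 22 pathway genes in place of 6 and 10. With an adjusted p no higher than 0.05 and the same fold limit, 1 member was called for the difference (SOCS1), beside 15.4% of all genes. With PMA 10 pathway genes were called under this limit, beside 12.8% of all genes. The 12 gained calls came from these limits and from SOCS1 without control 1. The 10 pathway genes with PMA include IL3RA and PRLR, and the 10 and 22 with ConA include IFNL1, IL3RA and PRLR. Those genes passed the filter through the treated group alone, which fixes their direction. Without them the main count with ConA is 7. Without the variance trend, calls over all genes fell from 1310 to 867 with PMA and from 1318 to 662 with ConA.

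Leaving out single libraries gave 1 to 1 members and 5 to 6 pathway genes called with PMA, 1 to 1 members and 9 to 12 pathway genes with ConA, and 0 to 1 members for the difference, where SOCS1 was called without control 1 of the PMA experiment (-1.54, adjusted p = 8.99e-05). The JAK1 difference, near 0, changed sign under median centring (0.053), without PMA-experiment control 1 (0.0040) or control 3 (0.0097), without PMA 3 (0.010), without ConA 2 (0.0076) or ConA 3 (0.024) and without control 5 (0.030), over a range of -0.040 to 0.030 without single libraries. The SOCS3 difference changed sign without PMA 1 (-0.0071), over a range of -0.0071 to 0.13. The cause of these shifts was not tested.

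With the replicate number as a block in the PMA experiment, 1264 genes and 1 member were called, with 6 pathway genes, and 0 members for the difference. Same-numbered libraries deviated together with r of -0.064, 0.096 and 0.096, so the numbers were not taken to pair them. No paired analysis was possible for ConA because its groups share no numbers. Depth limits genes with few reads, among them SOCS1 in the PMA experiment, the interferon ligands, IL3RA and PRLR. The median log2 fold change of all genes lay furthest from 0 under median centring with ConA (-0.091). SOCS1 with PMA was not tested under a minimum mean of 50.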
